A study of Mus musculus with 8 samples.

Results

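Megakaryocyte-erythroid progenitors (MEP cells) from mice carrying a truncated Hmga2 (TG) were compared with MEP cells from wild-type mice (WT), using 4 of the 8 arrays in the series: TG MEP 1, TG MEP 2, WT MEP 1 and WT MEP 2. The genotype of the TG mice is written ∆Hmga2 in the labels, and all mice were of strain C57BL/6J. The cells were sorted from bone marrow by flow cytometry, and every array carried total RNA of a separate preparation pooled from 4 or 6 mice. The other 4 arrays carried KLS cells, the c-Kit-positive, Sca-1-positive, lineage-negative fraction of stem and early progenitor cells, with 2 arrays for each genotype. The promoter that drives the truncated gene, the number of founder lines, and the age and sex of the mice are not stated in the labels. All 19938 genes with a single-symbol probe set entered the comparison, each by its brightest probe set. They were ranked by the mean log2 difference, TG minus WT, and by whether both TG arrays lay on one side of both WT arrays, which is called separation below.

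MEP cells are the marrow progenitors that give rise to red cells and to platelet-forming megakaryocytes. On the red cell path they switch on haem synthesis, iron import, the membrane skeleton and globins under the transcription factors GATA1 and KLF1. Hmga2 encodes a small chromatin protein that bends DNA at AT-rich stretches. It is active in embryonic and fetal cells and is held low in adult tissue by let-7 microRNAs, which bind its 3′ untranslated region, so a transcript without that region escapes them.

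The MEP arrays were not equally alike, and WT MEP 1 stood apart from the other 3. The closest pair crossed the genotypes: TG MEP 2 and WT MEP 2 correlated at 0.995 over genes, with 18 genes more than 2 fold apart. WT MEP 1 and WT MEP 2, of one genotype, correlated at 0.981 with 421 genes more than 2 fold apart, of which 415 were higher on WT MEP 1. TG MEP 1 and TG MEP 2 correlated at 0.988, with 111 genes more than 2 fold apart. The main counts, the lists and the leading genes are therefore also given against WT MEP 2 alone.

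Defining markers of the sorted cell type were measured on all 4 arrays. Gata1, the master regulator of the lineage, was at 8.37 and 8.31 on the TG arrays and at 8.07 and 8.37 on the WT arrays (log2 level, replicate 1 before replicate 2 here and in all such pairs). Klf1 was at 8.42 and 8.24 against 8.24 and 8.31, and the transferrin receptor Tfrc at 11.24 and 11.29 against 11.23 and 11.44. For these 3 genes the groups overlapped, as they did for Epor and Itga2b. Zfpm1, also a marker of the gate, was separated with TG below, at 7.42 and 7.56 against 7.63 and 7.62. Not all of these markers stood above KLS cells. Itga2b was lower on every MEP array than on every KLS array, and Zfpm1 and Epor overlapped between the cell types. Epor was at 7.06 on WT MEP 1 and at 7.14 on WT KLS 1. Of the markers that the MEP gate should exclude, Flt3, Cd34, Fcgr3 and Il7r were each higher on WT MEP 1 than on any other MEP array, and Ly6a, which encodes Sca-1, was not measured by a probe set of its own.

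Markers of other blood cells also stood highest on WT MEP 1. The mean of 8 B cell markers was 7.0 and 7.09 on the TG arrays, 9.28 on WT MEP 1 and 7.11 on WT MEP 2, and all 8 were highest on WT MEP 1. The mean of 9 neutrophil markers was 8.57 and 8.71 on the TG arrays, 10.10 on WT MEP 1 and 9.37 on WT MEP 2, so here WT MEP 2 also lay above both TG arrays. The 7 monocyte and macrophage markers averaged 5.91 and 6.15 against 6.88 and 6.49. The 5 T cell markers averaged 5.85 and 5.82 against 6.06 and 6.02, and the 5 stromal and endothelial ones 5.60 and 5.53 against 5.54 and 5.70. Xist, the RNA that coats the inactive X chromosome of female cells, was at 9.47 and 9.52 against 10.67 and 9.94. The Y-linked genes Eif2s3y and Uty lay the other way, at 8.55 and 8.65 against 8.19 and 8.35, and at 7.97 and 8.07 against 7.54 and 7.84. Y-linked Kdm5d overlapped between the groups, with a difference of 0.05. These 4 genes were looked at after their values were seen. In RNA from pooled cells, fewer cells of a type and less RNA per cell cannot be told apart. The part of these markers, and of the make-up of the pools by sex, in the differences below was not tested.

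No gene passed the test between the genotypes in MEP cells. With limma fitted over all 8 arrays, 0 of 19938 genes (0%) had an adjusted p under 0.05, and every gene had an adjusted p of 0.99998. At an unadjusted p under 0.05 there were 492 genes lower in TG (2.47%) and 247 higher (1.24%). With 2 arrays against 2, the smallest two-sided p of an exact permutation test is 0.333, so separation is a description and not a test. Both TG arrays lay above both WT arrays for 2592 genes (13%) and below them for 3438 genes (17.2%). The split moved with the scaling between arrays: 43.0% of the separated genes had TG above after quantile normalization, 54.0% with the values as deposited (3005 above, 2561 below) and 52.1% with each array centred on its median (2776 above, 2550 below). Genes with large differences lay mostly on the lower side, with 101 separated genes more than 2 fold lower in TG (0.507%) and 14 more than 2 fold higher (0.0702%). All 101 of the former were highest on WT MEP 1, and all 14 of the latter were highest on TG MEP 1.

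Against WT MEP 2 alone the differences were smaller. The 101 genes had a median difference of -1.87 from WT MEP 1 and of -0.58 from WT MEP 2. In the limma fit without WT MEP 1, 0 genes passed, with 235 lower and 85 higher at an unadjusted p under 0.05. The TG mean lay more than 2 fold below WT MEP 2 for 13 genes (0.0652%) and more than 2 fold above it for 12 (0.0602%). Both TG arrays lay below WT MEP 2 for 8214 genes (41.2%) and above it for 4352 (21.8%). In the fit without WT MEP 2, which leaves WT MEP 1 as the only WT MEP array, 144 genes passed (0.722%), all lower in TG, and 14 of them were among the 25 measured B lineage genes. That fit has 1 WT MEP array and assumes that it varies like the other groups, so its calls describe WT MEP 1 and are no replicated result.

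**Figure D1:**
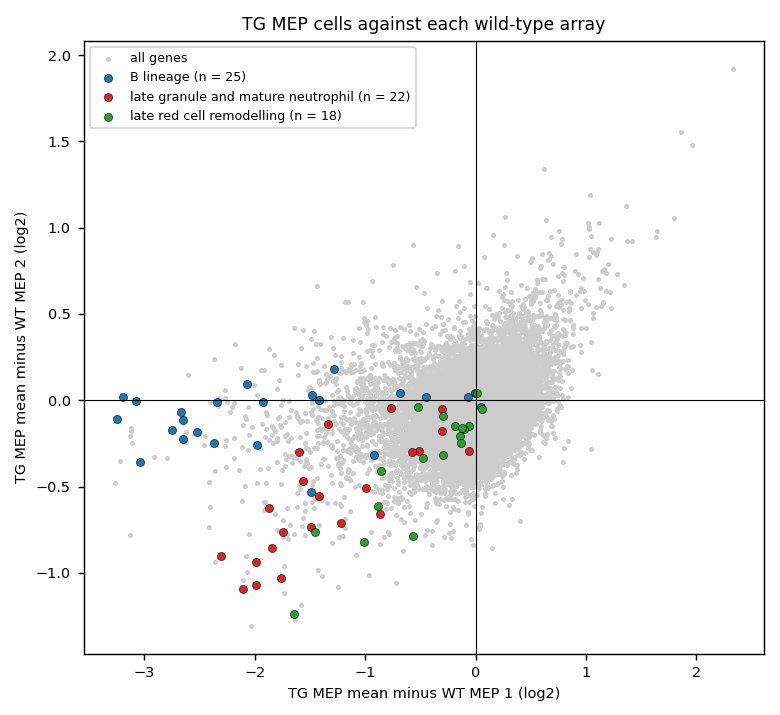
Each point is a gene, with the mean of the 2 TG MEP arrays minus WT MEP 1 on the horizontal axis and minus WT MEP 2 on the vertical axis, both in log2 units. B lineage genes (blue, 25) spread to the left along the horizontal axis at a median of -1.98 and lie near 0 vertically at -0.011, while late neutrophil genes (red, 22) lie low on both axes at -1.45 and -0.59, and late red cell genes (green, 18) at -0.30 and -0.23.

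Hmga2 itself was measured by 1 probe set. It was at 6.95 and 6.99 on the TG arrays and at 6.70 and 6.74 on the WT arrays. Both TG arrays lay above both WT arrays, and the arrays of each genotype lay close together, at 6.97 ± 0.02 and 6.72 ± 0.03 (mean ± SD, n = 2 each). The difference was 0.25 (SE 0.15, 95% interval -0.10 to 0.59) and did not pass limma's threshold (adjusted p = 0.99998). Whether this probe set lies in the part of the gene that the truncated form keeps is not stated in the labels, so it does not check the genotype labels. Of the 21 measured genes of the Hmga, Lin28 and let-7 list, 4 were separated with TG above and 3 with TG below, and 0 passed. The split was 3 above and 4 below with the values as deposited, and the median was -0.05, and 0.01 against WT MEP 2. Lin28b, an RNA-binding protein that blocks the maturation of let-7, was at 5.47 and 4.80 against 4.56 and 4.78, so TG MEP 2 and WT MEP 2 lay only 0.02 apart. E2f2, a cell cycle transcription factor, was at 6.17 and 6.64 against 7.01 and 6.78.

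A set of late red cell genes lay lower on both TG arrays, against WT MEP 2 as well as against WT MEP 1, though none passed the test. Slc4a1, the band 3 anion exchanger of the red cell membrane, was at 7.69 and 8.06 on the TG arrays and at 9.51 and 9.15 on the WT arrays. The nearest arrays lay 1.09 apart, the widest such gap with TG lower and 1 of 3 over 2 fold among all genes (0.0150%). No gene had such a gap with TG higher. The difference was -1.46 (SE 0.35, 2.74 fold lower), and -1.28 against WT MEP 2 alone. Xpo7, a nuclear export receptor used while the red cell nucleus condenses, was at 8.18 and 8.72 against 10.10 and 9.69. Its difference of -1.44 (SE 0.24) had the smallest unadjusted p by limma of the genes lower in TG. Classes that are not named here, such as clones and small nuclear RNAs, were left out of that ranking. The difference was -1.24 against WT MEP 2. Both genes also had a difference below 0 in KLS cells, of -1.0 and -0.46. Neither of them passed limma's threshold in MEP cells (adjusted p = 0.99998 each).

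Haem and iron genes divided into a few with wide gaps and many without. Alas2, the erythroid enzyme of the first step of haem synthesis, was at 8.11 and 8.37 against 9.63 and 9.26, a difference of -1.20 (SE 0.24) and of -1.02 against WT MEP 2. Fech, which inserts iron in the last step, was at 7.78 and 7.89 against 8.32 and 8.17. Both were separated, and the other 9 measured haem genes, among them Alad, Urod, Uros and Cpox of the middle steps, overlapped between the groups with differences from -0.18 to 0.09. Slc25a37, the mitoferrin that carries iron into mitochondria, was at 8.23 and 8.65 against 9.74 and 9.27, a difference of -1.06 (SE 0.23), and -0.83 against WT MEP 2. Ncoa4, the receptor that sends ferritin to be broken down, was at 8.97 and 8.98 against 9.79 and 9.46. These 2 were the only members of the 15 iron genes with both TG arrays below both WT arrays (13.3%). Alas2 and Fech made up 18.2% of the measured haem genes. Both shares were near the 17.2% of all genes separated below. The medians of the haem and iron lists were both -0.03, and -0.15 and -0.14 against WT MEP 2. They moved with the scaling, to -0.08 and -0.09 with the values as deposited (0.02 for all genes) and to -0.11 and -0.12 with median centring (-0.01 for all genes).

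In the list of 18 measured genes of late red cell remodelling, 14 had both TG arrays below both WT arrays and 1 had both above, beside 17.2% and 13% of all genes. Its median difference was -0.24, and -0.23 against WT MEP 2 alone. Both TG arrays lay below WT MEP 2 for 15 of 18, beside 41.2% of all genes, and the 14 are among these by definition. Bcl2l1, the survival protein BCL-XL of maturing red cells, was at 7.16 and 7.22 against 8.64 and 7.96. Fhdc1, a formin-family protein, was at 5.83 and 6.37 against 7.11 and 6.92. Cpeb4, a repressor of translation in terminal erythroid cells, was at 8.29 and 8.44 against 9.25 and 8.97. These 3 were separated by 0.73, 0.55 and 0.53, with differences of -1.11, -0.91 and -0.75. The 1 member with TG above was Car1, a carbonic anhydrase of red cells, at 12.96 and 12.96 against 12.95 and 12.92, and it was named after its values were seen. In KLS cells the list had a median of -0.14. There 6 of the 18 were separated below and 1 above, beside 17.2% and 11.7% of all genes.

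Of 19 red cell membrane and blood group genes, 11 were separated with TG below and 0 with TG above, at a median of -0.09 and of -0.19 against WT MEP 2. The median was -0.18 with the values as deposited and -0.21 with median centring, where 10 were separated below in each. After Slc4a1, the widest differences were those of Tmod1, which caps actin in the membrane skeleton, and Epb42, the band 4.2 protein that ties band 3 to it. Tmod1 was at 6.75 and 6.83 against 7.60 and 7.42, and Epb42 at 8.02 and 8.09 against 8.70 and 8.50. The groups did not overlap for either gene, but a dimmer probe set of Tmod1 had a difference of 0.03. Of 16 erythroid transcription factors, 7 were separated with TG below and 0 with TG above, at a median of -0.10 and of -0.07 against WT MEP 2. With the values as deposited 8 were separated below and with median centring 4, at medians of -0.16 and -0.19. The widest difference was that of Sox6, a repressor of embryonic globins, at 7.31 and 7.33 against 7.99 and 7.57. The 6 measured globin genes are embryonic or minor ones, since the adult globin probe sets name several genes. Hbq1b, a theta globin, was at 7.16 and 7.27 against 7.86 and 7.83. All 6 had differences below 0 after quantile normalization, beside 52.0% of all genes, and 3 of 6 did with the values as deposited.

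**Figure D2:**
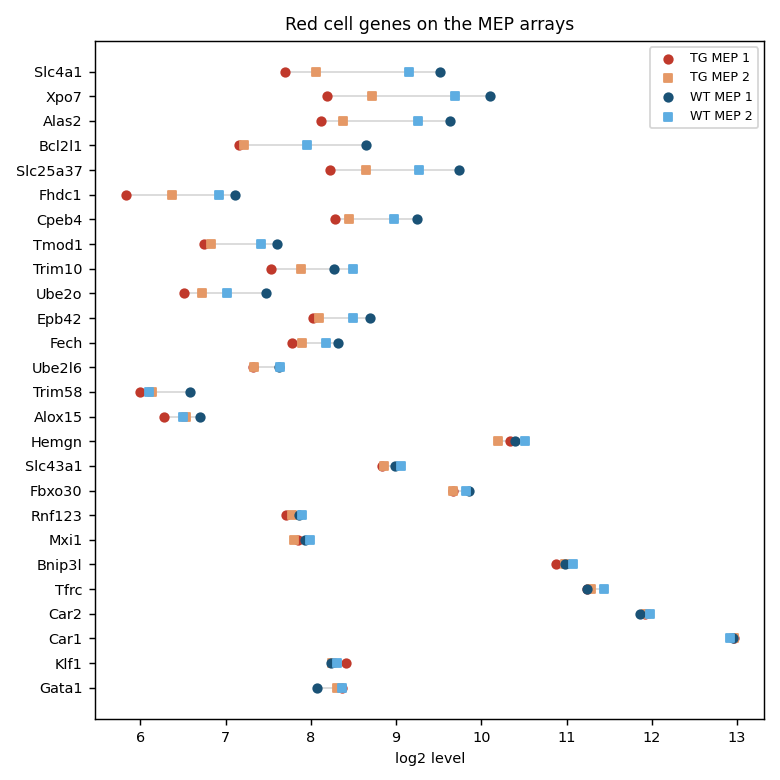
Log2 level of red cell genes (rows, ordered by difference) on TG MEP 1 and 2 (red and orange) and WT MEP 1 and 2 (dark and light blue). For Slc4a1, Xpo7 and Alas2 both TG arrays lie left of both WT arrays by 1.09, 0.97 and 0.89, while for Klf1 and Gata1 the groups overlap.

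GATA1 binds the letters AGATAA or TGATAA, and red cell genes often hold them near their start. These letters were searched on both strands of the 250 bases before each start in RefSeq promoters of build GRCm38.p6, counting a gene once if any of its starts had a match. They stood before 15.8% of 15614 measured genes with a promoter entry. They stood before 6 of 14 red cell membrane genes (42.9%), 4 of 11 late remodelling genes (36.4%) and 3 of 10 haem genes (30%). They stood before 5 of 21 late granule genes (23.8%) and 3 of 20 B lineage genes (15.0%). Counted by start, the share was 13.5% of 19177 starts over all these genes. It was 42.9% of 14 membrane, 25.0% of 16 late remodelling and 23.1% of 13 haem starts. For late granule genes it was 23.8% of 21 starts, and for B lineage genes 14.3% of 21. The table held no entry for Slc4a1, Xpo7, Slc25a37 or Fech. Of the 13 red cell genes with a match, 9 were separated with TG below and 0 with TG above, beside 17.2% and 13% of all genes. In the lists they come from, 11 of 19 membrane, 14 of 18 late remodelling and 2 of 11 haem genes were separated below. Whether a match goes with separation was not tested. Differences of the 9 ran from -0.06 for Ermap to -1.20 for Alas2, with Kel at -0.07, Icam4 at -0.14 and Hemgn at -0.19. Rhag, Uros, Rhd and Cpox overlapped, with differences from -0.03 to 0.15. Cpeb4, at -0.75, and Tent5c were separated below without a match. Alas2, Bcl2l1 and Fhdc1 had the largest differences of the 13, and their windows, with 1 match each, are shown for that reason. Capitals mark the match, written TTATCT where it lies on the opposite strand. For Bcl2l1 and Fhdc1 the window with the match is shown, 1 of 3 and 1 of 2 starts. A match is a description of the sequence and no evidence of binding.
Alas2, chrX:150547167-150547416, plus strand: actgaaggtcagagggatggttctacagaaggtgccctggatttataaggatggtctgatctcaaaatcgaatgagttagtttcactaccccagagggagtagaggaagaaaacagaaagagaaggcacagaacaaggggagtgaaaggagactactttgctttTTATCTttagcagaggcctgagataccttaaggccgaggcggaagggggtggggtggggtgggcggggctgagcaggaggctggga
Bcl2l1, chr2:152828490-152828739, minus strand: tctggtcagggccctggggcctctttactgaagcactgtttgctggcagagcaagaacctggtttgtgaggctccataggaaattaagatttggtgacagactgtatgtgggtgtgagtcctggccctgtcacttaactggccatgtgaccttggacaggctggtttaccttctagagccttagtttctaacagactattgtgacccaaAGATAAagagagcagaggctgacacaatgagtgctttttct
Fhdc1, chr3:84479492-84479741, minus strand: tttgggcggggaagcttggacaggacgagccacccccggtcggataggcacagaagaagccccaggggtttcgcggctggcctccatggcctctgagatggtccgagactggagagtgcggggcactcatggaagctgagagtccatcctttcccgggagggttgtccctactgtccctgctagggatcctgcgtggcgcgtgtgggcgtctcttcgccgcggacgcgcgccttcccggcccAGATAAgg
In Alas2 the match begins 86 bases before the start, in Bcl2l1 41 and in Fhdc1 8.

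Most genes of the late granule and mature neutrophil list were lower on both TG arrays. These genes encode the secondary and tertiary granule proteins and surface receptors of maturing neutrophils, which MEP cells are not known to make. Of 22 measured members, 19 had both TG arrays below both WT arrays and 0 had both above, at a median of -0.98. Against WT MEP 2 alone the median was -0.59. Both TG arrays lay below that array for 20 of 22, beside 41.2% of all genes, and the 19 are among these by definition. Lcn2, a protein that starves bacteria of iron, was at 7.54 and 7.54 on the TG arrays and at 9.53 and 8.61 on the WT arrays. Retnlg, a resistin-like neutrophil protein, was at 9.09 and 9.12 against 10.87 and 10.13. With Slc4a1 these are the 3 genes whose nearest arrays lay more than 2 fold apart, by 1.07 and 1.02 here. In both, the TG arrays lay close together and the WT arrays 0.92 and 0.73 apart.

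The other large differences in that list ran from -1.61 for Mmp8, a granule collagenase, and -1.60 for Ifitm6, a membrane protein of myeloid cells, to -1.47 for Ngp, a granule protein. Mmp8 was at 7.74 and 7.79 against 10.07 and 8.67, so WT MEP 2 lay between the TG arrays and WT MEP 1. S100a8 and S100a9, the calprotectin subunits of neutrophils, were at 11.18 and 11.27 against 12.45 and 11.94, and at 11.58 and 11.48 against 12.52 and 12.04. All of these were separated, and 0 of the 22 passed limma's threshold. In KLS cells the list had a median of -0.21. There 2 of the 22 were separated below and 0 above, beside 17.2% and 11.7% of all genes, so the share below was not raised. The 9 neutrophil markers, all of which belong to this list, were on average 1.09 lower in TG, and their part in the other differences was not tested.

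The other myeloid lists showed less of a gap against WT MEP 2. The 14 measured genes of the primary granule list had a median of -0.69 and of -0.26 against WT MEP 2, with 7 separated below. Lyz2, the lysozyme of myeloid cells, was at 8.39 and 8.54 against 10.57 and 9.50, and Hp, haptoglobin, at 6.84 and 6.78 against 8.24 and 7.80. Both were separated, and both had a wide difference from WT MEP 2 alone, at -1.04 and -0.98. Mpo, myeloperoxidase, was at 8.52 and 8.66 against 9.76 and 8.88, with TG MEP 2 and WT MEP 2 only 0.22 apart. Of the 5 measured phagocyte oxidase genes 4 were separated below, led by the catalytic subunit Cybb at 7.66 and 7.95 against 9.88 and 8.80. Of 25 monocyte, macrophage and dendritic cell genes 15 were separated below and 2 above, at a median of -0.27 and of -0.18 against WT MEP 2, among them the lysosomal protease Ctss (7.19 and 7.0 against 9.01 and 7.68) and the pore-forming Mpeg1 (6.59 and 6.74 against 8.35 and 7.39). S100a6, a calcium-binding protein, was at 7.39 and 7.91 against 9.39 and 8.77, and Rsad2, the interferon-induced viperin, at 7.34 and 7.75 against 8.79 and 8.63. These were the 2 genes outside the red cell, neutrophil and primary granule lists among the 8 named for the widest differences below WT MEP 2, at -1.12 and -1.08.

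B lineage genes stood high on WT MEP 1 and not on WT MEP 2. The 25 measured members, which encode pre-B cell receptor parts, recombination enzymes and B cell transcription factors, had a median difference of -1.98 from WT MEP 1 and of -0.011 from WT MEP 2. Il7r, the receptor of the cytokine that early lymphoid cells need, was at 6.71 and 6.71 on the TG arrays, at 9.96 on WT MEP 1 and at 6.82 on WT MEP 2. Cd79b, a signalling chain of the B cell receptor, was at 6.56 and 7.02 against 9.84 and 7.15. Ebf1 and Pax5, which set B cell identity, were at 6.84 and 7.01 against 10.12 and 6.91, and at 6.70 and 6.72 against 8.64 and 6.72. On 3 arrays these genes stood close together, and WT MEP 1 stood alone above them. Of the 25, 9 were separated below and 0 above, and the fit without WT MEP 2 called 14.

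The antigen-presenting MHC class II genes followed WT MEP 1 as well. The 8 members had a median of -0.58, and of -0.06 against WT MEP 2, and H2-Aa, an alpha chain, was at 6.52 and 6.71 against 8.09 and 7.08. T and NK lineage genes had a median of -0.07 and of -0.05 against WT MEP 2. Of 31, 9 were separated below and 4 above, but 3 below and 4 above with the values as deposited. Cd3d, part of the CD3 signalling complex of T cells, was the widest of the separated ones at 4.50 and 5.01 against 5.62 and 5.59, a difference of -0.85 with the WT arrays close together. Mast cell, basophil and eosinophil genes had a median of -0.28 and of -0.07 against WT MEP 2, with 8 of 18 separated below and 1 above. Fcer1a, the alpha chain of the IgE receptor, was at 4.20 and 4.42 against 5.54 and 4.67.

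Genes of stem and multipotent cells were likewise highest on WT MEP 1. The 25 measured members had a median of -0.17 and of -0.02 against WT MEP 2, with 7 separated below and 2 above. Flt3, a growth factor receptor of multipotent cells, was at 6.06 and 6.02 against 7.76 and 6.38. Cd34, a surface protein of early progenitors, was at 5.91 and 6.37 against 7.62 and 6.63. Erg, a transcription factor of stem cells, was at 6.83 and 6.92 against 8.14 and 7.01. In all 3 the 2 TG arrays lay nearer to WT MEP 2 than the WT arrays lay to each other. The 17 megakaryocyte and platelet genes had a median of -0.11 and of -0.04 against WT MEP 2, with 2 separated below and 0 above. The median was -0.03 with the values as deposited and -0.06 with median centring. Thbs1, thrombospondin of platelets, was the wider of the 2 at 6.05 and 6.15 against 6.51 and 6.33.

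Cytokine receptors lay lower in TG more often than not, and again more so against WT MEP 1. Of 21 cytokine receptors 11 were separated below and 0 above, at a median of -0.37 and of -0.16 against WT MEP 2. Il6st, the shared signal chain of the interleukin-6 family, was at 6.02 and 6.25 against 7.54 and 6.71. Epor, the erythropoietin receptor, overlapped between the groups at 7.15 and 7.42 against 7.06 and 7.37. Of 28 JAK-STAT genes 11 were separated below and 0 above, at a median of -0.13 and of -0.04 against WT MEP 2. Pim1, a kinase induced by cytokines, was at 6.83 and 6.62 against 7.25 and 7.06, and Stat5b, a transcription factor of erythropoietin signalling, at 7.01 and 7.33 against 7.46 and 7.50. Their differences from WT MEP 2 alone were -0.34 and -0.33.

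Among cell cycle genes the groups lay close together, and the counts moved with the scaling. The 44 measured members had a median of -0.05 and of -0.07 against WT MEP 2, with 12 separated below and 5 above. With the values as deposited the median was -0.11 with 13 below and 1 above, and with median centring -0.13 with 12 below and 0 above. E2f2, Mybl2, Foxm1 and Rb1 were the widest below. Cdkn2c, an inhibitor of the cyclin D kinases, was at 6.90 and 7.24 against 7.48 and 7.48. Of 23 genes of p53 and its targets 9 were separated below and 0 above (6 and 0 with median centring), at a median of -0.17 and of -0.16 against WT MEP 2, with Btg2, an antiproliferative gene, at 6.98 and 7.89 against 9.85 and 8.17. The 23 Polycomb genes had a median of -0.05 (-0.10 as deposited, -0.12 with median centring, -0.0074 against WT MEP 2). The 26 cytosolic ribosomal protein genes had one of -0.0057 (-0.0073, -0.03 and -0.02 in the same order). Heat shock genes were the only of the 34 lists with more members separated above than below by more than 1, at 4 above and 0 below of 19, with a median of 0.05 and of -0.02 against WT MEP 2. Hspa1a, an inducible HSP70, was at 7.77 and 8.64 against 7.59 and 6.86, so TG MEP 1 lay 0.18 above WT MEP 1. The other 3, Hspd1, Hspa4 and Hsp90aa1, had differences of 0.17, 0.15 and 0.05, and 3 of the 19 were separated above with the values as deposited and 0 with median centring.

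**Figure D3:**
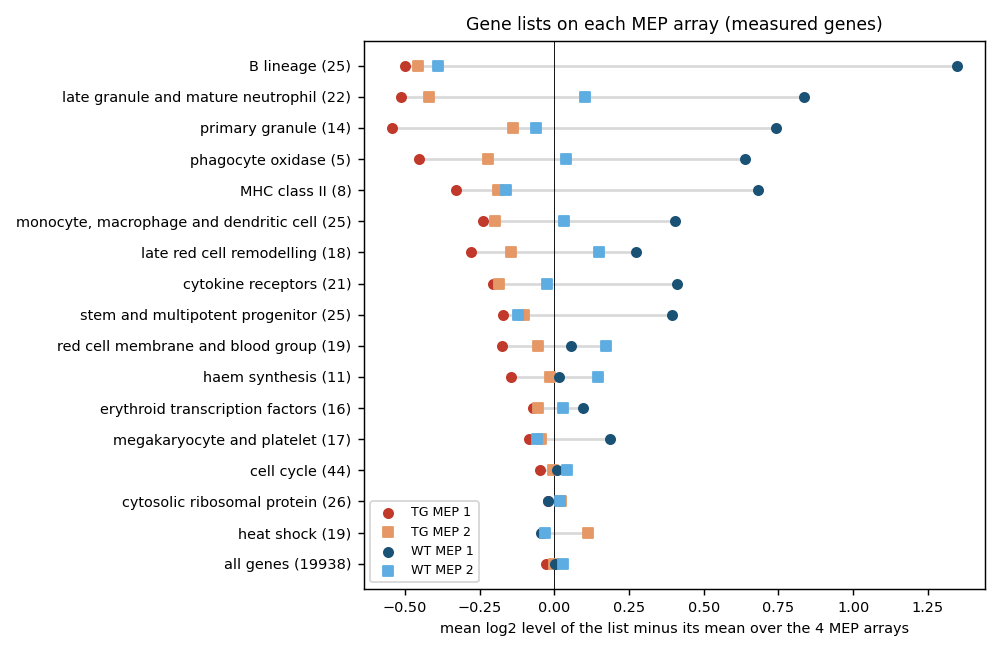
Mean log2 level of each gene list (rows, with the number of measured genes) on each MEP array, minus its mean over the 4 arrays. WT MEP 1 (dark blue circle) lies far right for B lineage genes while the other 3 arrays lie together, and for late neutrophil and late red cell genes WT MEP 2 (light blue square) also lies right of both TG arrays.

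The 12 named genes with the largest separated differences below WT were led by Marcks, a membrane-bound substrate of protein kinase C. It was at 6.06 and 6.27 on the TG arrays and at 9.30 and 6.94 on the WT arrays, a difference of -1.96 (SE 0.64), and of -0.78 against WT MEP 2. Ikzf3, the lymphoid factor Aiolos, was at 5.07 and 5.13 against 8.37 and 5.58. Slamf7, a receptor of lymphocytes, was at 5.55 and 5.75 against 8.77 and 5.83. In these 3 the large difference rests on WT MEP 1. Atp1b1 and Il2ra, a sodium pump subunit and an interleukin-2 receptor chain, had the same shape, with differences of -0.25 and -0.33 against WT MEP 2. Ifi214, an interferon-inducible gene, was at 3.87 and 4.83 against 6.71 and 5.29, with a difference of -0.94 against WT MEP 2. Tent5c, a poly(A) polymerase, had a smaller difference of -0.81 (SE 0.17) but steady arrays, at 8.48 and 8.60 against 9.37 and 9.34, and -0.79 against WT MEP 2.

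**Figure D4:**
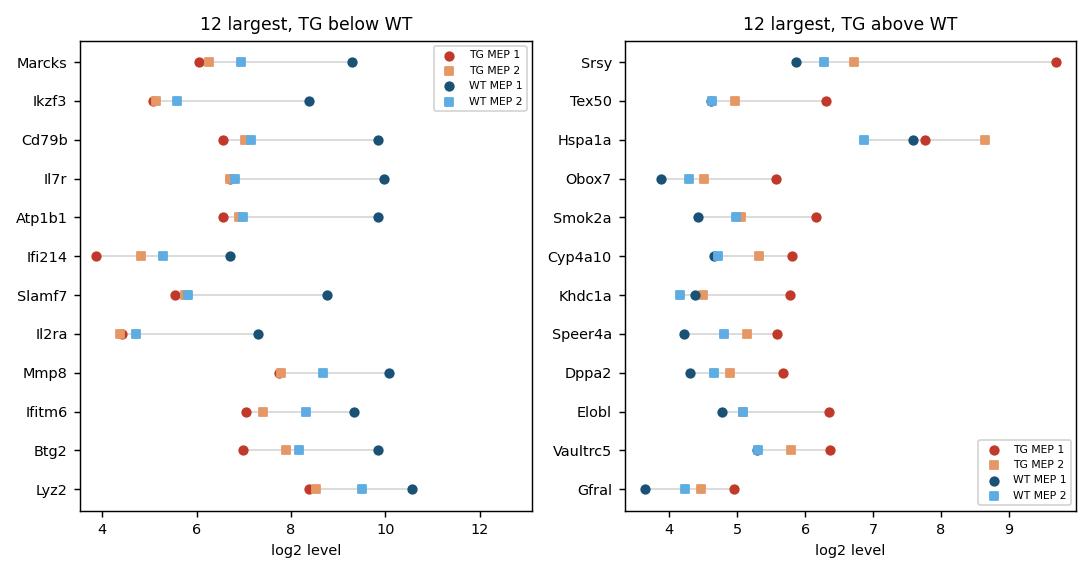
Log2 level on the 4 MEP arrays for the 12 named genes with the largest separated difference below (left) and above (right) WT. On the left WT MEP 1 (dark blue) lies farthest right in all 12, and on the right TG MEP 1 (red) does in all but Hspa1a, where TG MEP 2 lies farthest right at 8.64.

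The genes more than 2 fold higher in TG MEP cells rested on TG MEP 1. Of the 14 separated genes more than 2 fold higher, 7 were olfactory receptors and 12 carry names that the naming rule skips, and their median level was 5.40. The 2 that it keeps were Srsy and Tex50. Srsy, a Y-linked testis gene family, was at 9.69 and 6.71 against 5.87 and 6.28, a difference of 2.13 (SE 0.91). Its 19 probe sets each differed by between 1.53 and 2.45, but some gave identical values, so they are not independent measures. Tex50, a testis gene, was at 6.31 and 4.96 against 4.61 and 4.63. In both TG MEP 2 lay nearer to the WT arrays than to TG MEP 1. Klk1b24, a kallikrein-family protease, had the smallest unadjusted p by limma of the higher genes that the rule keeps. It rested on both arrays, at 5.01 and 5.0 against 4.15 and 4.38, a difference of 0.74 (SE 0.17). Vaultrc5, a vault RNA, was at 6.37 and 5.79 against 5.29 and 5.31, and Fbxw22, an F-box gene, at 5.03 and 5.11 against 4.49 and 4.30. None of these 3 genes passed limma's threshold (adjusted p = 0.99998 each).

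Olfactory receptors, which marrow cells are not known to use, stood highest on TG MEP 1, a class chosen after its values were seen. The mean of 1027 receptors was 4.79 on TG MEP 1 and 4.55, 4.47 and 4.63 on TG MEP 2, WT MEP 1 and WT MEP 2. TG lay above for 224 (21.8%) and below for 112 (10.9%), at a median of 0.10 and of 0.02 against WT MEP 2. The mean difference was more than 2 fold above 0 for 10 receptors, beside 0.0853% of all genes. With the values as deposited the median was 0.23, with 342 above and 17 below, and with median centring it was 0.20, with 356 above and 29 below. The part of this shift in the genes higher in TG was not tested.

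**Figure D5:**
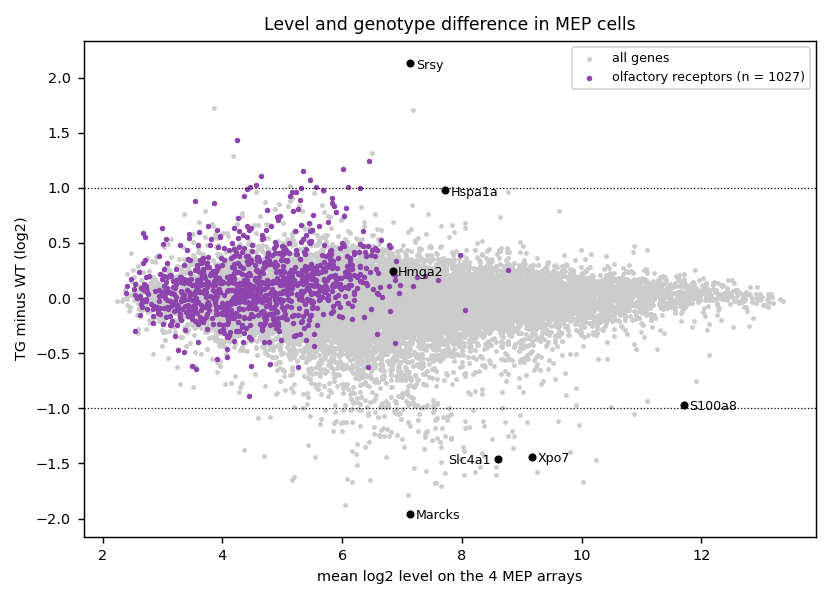
TG minus WT log2 difference of each gene (vertical axis) by its mean log2 level on the 4 MEP arrays (horizontal axis), with olfactory receptors in purple and dotted lines at 2 fold. The points above the upper line lie mostly at low levels and include 10 olfactory receptors, while genes such as Slc4a1, Xpo7 and S100a8 lie low at middle and high levels.

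The genotype difference in MEP cells was set against that in KLS cells by an interaction term, MEP minus KLS. No gene passed limma's interaction test (0%), and 453 had an unadjusted p under 0.05 (2.27%). Zfp931 and Zfp873, zinc finger genes, were among the 5 with the smallest p, with TG below WT in MEP cells at -0.62 and -0.56 and above in KLS cells at 0.87 and 0.75. Mab21l2, a gene of embryonic development, had a difference of 0.004 in MEP and of -0.86 in KLS cells. Fbxw22 and Dppa5a, a gene of pluripotent cells, had 0.68 and 0.29 in MEP cells against -0.34 and -0.82 in KLS cells. The difference was below 0 in both cell types for Alas2, at -1.20 and -0.51, and for Bcl2l1, at -1.11 and -0.62. It was below 0 in MEP and above 0 in KLS cells for the red cell gene Cd59a, at -0.46 and 0.57. For Lcn2 and Lyz2 it was -1.53 and -1.57 in MEP cells and -0.16 and -0.34 in KLS cells, and these gaps between the cell types did not pass the interaction test (adjusted p = 0.99995 each by limma).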

How the data were processed

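Total RNA of 8 cell preparations was measured on Affymetrix Mouse Gene 1.0 ST arrays, 1 biotin-labelled array for each. The deposited table gives log2 values of 35556 probe sets, which the authors made with Affymetrix Expression Console, per the submitters' processing notes. How the authors corrected background, normalized and summarized probes is not stated there. Array medians spanned 0.106 as deposited, above the limit of 0.1 set for it, so quantile normalization was applied (limma 3.58.1, R 4.3.3).

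The platform annotation names 1 gene for 21789 probe sets, several for 1621 and none for 12146. Entrez identifiers of 21698 were matched to RefSeq (GRCm38.p6), and 0 symbols changed. The brightest probe set stood for each gene, which matters for 999 genes with several. A mean for each of 4 groups was fitted over all 8 arrays with limma's lmFit and eBayes (4 residual and 4.82 prior degrees of freedom), two-sided, with Benjamini-Hochberg adjustment over 19938 genes. The test was tried on simulated data, and the outcome is not given here. A fit that leaves 1 array in a group assumes that it varies like the other groups. Depth has no meaning for arrays, and 2 arrays for each group limit the precision.

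The named genes were Hmga2, the 12 largest separated differences in each direction, the 8 largest against WT MEP 2, the 3 smallest p in each direction, the 5 smallest interaction p and up to 4 members of each list, leaving out clones, predicted genes, olfactory and vomeronasal receptors, microRNAs, small nucleolar and nuclear RNAs and antigen receptor segments. The members, the 34 gene lists and the markers were chosen with earlier results of these data known. Other settings tried were no scaling, median centring, no dim genes, the mean over probe sets, an intensity trend, the MEP arrays alone, a replicate block and leaving out each array. Promoters were searched with Python 3.11.15.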

Additional observations from a re-analysis of the deposited data

Results flagged for a closer look

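For 11 genes both TG arrays lay on one side of both WT arrays in MEP cells and on the other side in KLS cells. By limma's interaction term, MEP minus KLS, none of the 11 passed (adjusted p = 0.99995 each), so these opposite directions are a description of 2 arrays for each group.

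With TG below in MEP cells and above in KLS cells, the zinc finger genes had the widest gaps. The interaction was -1.50 for Zfp931 (-0.62 in MEP, 0.87 in KLS) and -1.31 for Zfp873 (-0.56 and 0.75). Prg2, the major basic protein of eosinophils, had -1.31 (-0.56 and 0.75), and Cd59a, which blocks complement on red cells, had -1.03 (-0.46 and 0.57). Smad2, a carrier of TGF-beta signals, had -0.55 (-0.28 and 0.27), and the embryonic globin Hbb-bh1 had -0.36 (-0.18 and 0.18).

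With TG above in MEP cells and below in KLS cells, the gaps were those of dim genes for the most part. The interaction was 1.05 for Elobl (0.79 in MEP, -0.26 in KLS), 1.02 for Samt2b (0.66 and -0.35) and 1.02 for Fbxw22 (0.68 and -0.34). Egr2, an immediate early transcription factor, had 0.33 (0.25 and -0.08), and Cd247, a CD3 zeta chain of T cells, had 0.26 (0.14 and -0.12).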

How the results depend on the processing

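No gene passed in MEP cells under any alternative but 1. Leaving out each array in turn gave 0 to 144 genes, and the 144 came without WT MEP 2. At an unadjusted p under 0.05 the counts ran from 145 to 1230 lower and from 72 to 752 higher. For the interaction they ran from 0 to 10 passing and from 179 to 1544 unadjusted. With an MEP array left out, a lone array need only lie outside the other 2, so separation is met more often by definition. Separation then ran from 4352 to 8550 genes above and from 5243 to 8214 below. Over 2 fold it ran from 2 above without TG MEP 1 to 104 without TG MEP 2, and from 13 below without WT MEP 1 to 498 without WT MEP 2.

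As deposited, 409 genes were higher at an unadjusted p under 0.05 and 23 were over 2 fold above, and 393 were higher with median centring. Without the dimmest 30% of genes there were 323 lower and 95 higher, 249 for the interaction, 1694 above, 5 over 2 fold above and 5 over 2 fold above WT MEP 2, with fewer genes tested. Hbb-bh1 reversed to 0.0029 as deposited, and Ireb2 to -0.015 as deposited and -0.043 with centring. The cause was not tested.

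The groups share replicate numbers, but the arrays share only a number: deviations of same-numbered arrays correlated at -0.21 in MEP and 0.38 in KLS cells. With the replicate block 0 genes passed, with 632 lower and 230 higher at an unadjusted p under 0.05, and 510 for the interaction. With the MEP numbers crossed, a pairing chosen after seeing the data, 0 passed, with 446 lower and 229 higher.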

Other observations

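Histone genes stood lowest on TG MEP 1, with a mean level of 6.98 there, 7.40 on TG MEP 2, 7.69 on WT MEP 1 and 7.47 on WT MEP 2. These genes, for the most part transcribed in S phase, were chosen as a class after their values were seen. Of 30 measured linker and clustered core histones, 14 were separated with TG below and 0 with TG above, beside 17.2% and 13% of all genes. Their median was -0.40, and -0.26 against WT MEP 2. H2bc8 was at 6.85 and 7.51 on the TG arrays and at 9.33 and 7.59 on the WT arrays, and H2ac4 at 6.34 and 7.36 against 7.63 and 7.62. For H2bc8 WT MEP 1 stood alone, and for H2ac4 TG MEP 1 did. None of the 30 passed limma's threshold.

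Small nucleolar and nuclear RNAs lay the other way, with 19 of 61 separated above and 3 below, at a median of 0.12 and of 0.16 against WT MEP 2. The counts were 14 above and 3 below with the values as deposited (median 0.09) and 10 above and 5 below with median centring (median 0.06). This class too was chosen after its values were seen. Rnu3a, a U3 RNA that guides the cutting of ribosomal RNA, was the widest exception, at 9.52 and 8.87 against 11.23 and 10.50, a difference of -1.67 (SE 0.30). It was also -1.31 against WT MEP 2, the widest below that array of all genes, and -0.90 in KLS cells.

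Of 26 chemokine system genes, 10 were separated below and 1 above, at a median of -0.19 and of -0.10 against WT MEP 2. The median was -0.08 with the values as deposited and -0.10 with median centring. Cxcr4, the receptor that holds progenitors in the marrow, was at 9.38 and 9.37 against 10.42 and 9.69. Of 33 genes of the IGF and PI3K-AKT list, 10 were separated below and 2 above, at a median of -0.13 and of -0.06 against WT MEP 2, and Foxo1, a transcription factor that AKT restrains, was at 6.53 and 6.97 against 7.78 and 7.01. Of 32 interferon-stimulated genes, 7 were separated below and 4 above, at a median of -0.05 and of 0.06 against WT MEP 2 (-0.11 as deposited, with 4 below and 2 above). Bnip3, a mitophagy receptor of the Bcl2 family, was separated above at 7.71 and 7.35 against 7.08 and 7.09, but its other probe set had a difference of -0.04.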
